A study of Danio rerio with 6 samples.

Results

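The genes described here are nfkbiaa, nfkbiab, dusp1 and cebpd, 4 genes that glucocorticoids are known to induce in mammals and whose products restrain or shape inflammation. They are 4 of the 6295 genes named in a table of open chromatin regions of adult zebrafish blood, and every region that the table assigns to them was taken, whatever its annotation. This gave 6 of 9546 regions, 1 for nfkbiaa, 2 for nfkbiab, 2 for dusp1 and 1 for cebpd. The table holds only regions that the authors scored as more open in cortisol-treated fish from these same libraries, and it is called the list below. A higher value in treated fish at a listed region is therefore not independent evidence of a difference.

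The libraries were made by ATAC-seq, in which a transposase cuts and tags DNA that is not packed away in chromatin, and stretches of open chromatin are then seen as peaks of aligned reads. Blood came from adult fish of the AB strain, 3 libraries from fish that as larvae had been kept in medium with 1 µM cortisol for the first 5 days of development and 3 from controls given DMSO, the vehicle, over the same days. All fish then lived under normal conditions, and treated and control fish were sampled at matching ages, 12 months in replicate 1, 11 in replicate 2 and 10 in replicate 3. The study describes each replicate as a pool of 6 fish of mixed sex whereas the deposited design text speaks of individual adults, so it is not settled whether n counts pools or fish.

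In mammals the receptor for cortisol acts as a transcription factor, and much of the anti-inflammatory effect of the hormone runs through inhibitors that it induces. IκBα, the product of NFKBIA, holds the inflammatory transcription factor NF-κB in the cytoplasm, and zebrafish carry a pair of genes for it, nfkbiaa and nfkbiab. DUSP1 removes phosphate from MAP kinases and so ends their signal. C/EBPδ, the product of CEBPD, is a transcription factor of the acute phase response and of myeloid cells.

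The values given are of 3 kinds. Each peak of a library carries the authors' score, which rises with sequencing depth, so the score was used to rank regions within a library. Where peaks of different libraries overlapped they were joined, which gave 153054 merged regions, and a percentile is the rank of a region among the 13835 that held a peak in every library. The height is the number of reads piled up at the summit, recovered from the steps between scores, and it is given on a log2 scale relative to the median of the 13835 regions in the same library. The third value is the height in the pooled libraries of a group. Percentiles were compared by an exact two-sided permutation test, which with 3 libraries a group cannot give a p under 0.1, and heights by limma across all 13835 regions. Differences are cortisol-treated minus control throughout.

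The libraries differed in size. The cortisol-treated libraries had 26905 to 56695 peaks and a background of 1.99 to 6.49 reads, and the control libraries 29401 to 138146 peaks and a background of 3.40 to 8.96 reads. The background is the pile-up that the peak caller expected, recovered from the scores, and it stands in for depth here. It depends on the genome size set for the caller and is not a measured mean. Scaled to its own background, the median region was higher in cortisol-treated libraries by a mean of 0.96 on the log2 scale, so that changes are reported relative to the median region. Its values were 3.81, 4.21 and 4.94 in cortisol-treated replicates 1 to 3 and 2.81, 2.77 and 4.50 in control replicates 1 to 3. Control replicate 3 thus lay above cortisol-treated replicates 1 and 2. The peak names of cortisol-treated replicate 1 carry the digit found in control replicates 2 and 3, and those of control replicate 1 the digit found in cortisol-treated replicates 2 and 3. Groups follow the sample labels, and the values without the libraries of replicate 1 are given where they matter. Of the marker genes for blood, 10 of 13 erythroid genes, 3 of 12 myeloid genes, 2 of 12 lymphoid genes and 2 of 7 thrombocyte genes had a listed region. The share of all annotated genes with a listed region is not given here, so these counts have no background rate. The percentile was higher in treated fish at 30 of the 33 erythroid regions (median difference 4.62) and at 4 of 4 myeloid regions (3.38). It was higher at 2 of 3 lymphoid regions (1.51) and at 2 of 2 thrombocyte regions (1.88), beside 79.0% of all listed regions (3.24). Among the erythroid regions, those 2860 and 3366 bp upstream of the sptb start had the same percentiles in every library. The hbaa1 regions 32 bp upstream and 523 bp downstream of the start had the same percentiles in every treated library and in control replicate 3. At 523 bp control replicates 1 and 2 were at 9.73 and 14.2, and the difference of 55.7 points there was the largest of the erythroid regions. The part of these cell types in the results for the 4 genes was not tested. In such mixed blood samples, more cells of a type with an open region and a more open region in each cell cannot be told apart.

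All 6 regions of the 4 genes held a peak in each of the 6 libraries. Their mean percentile was higher in treated fish at 3 regions and lower at 3, with a median difference of 0.445, whereas 79.0% of all listed regions were higher, with a median difference of 3.24. By log2 height 4 of the 6 were higher, with a median difference of 0.098. This stands beside 7280 of the 8887 listed regions with a height in all libraries, and a median of 0.181. These log2 heights are relative to the median region. Scaled to the background instead, all 6 differences were positive, as was the shift of the median region (0.96). The 6 regions also ranked higher than the list as a whole, with a median of the mean percentile of 75.9 beside 62.6. The groups did not overlap at 1 of the 6 regions, a distal region of dusp1 where every treated library lay above every control. This held for 9.54% of all listed regions and for 5.88% of regions holding a peak in every library. No region of the 4 genes had every treated library below every control, which held for 0.775% of listed regions and 2.9% of regions with a peak in every library. That 0 rested on single libraries. Without cortisol-treated replicate 3 there were 3 such regions, the dusp1 promoter and both nfkbiab regions, against 2.35% of listed regions. There were 2 without control replicate 1, the nfkbiaa region and the nfkbiab intron, against 3.72%, and 1 without control replicate 2, the nfkbiab promoter, against 2.86%. Without both libraries of replicate 1 there were 2, the nfkbiaa region and the nfkbiab intron, against 5.46%. Within replicate numbers, the percentile of 1 of the 6 regions was higher in the treated library of every pair, against 32.4% of listed regions. That of 2 was lower in every pair, against 4.87%. At the nfkbiab promoter, 1 of these 2, the pair differences in log2 height were -0.38, 0.07 and 0.006.

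**Figure D1:**
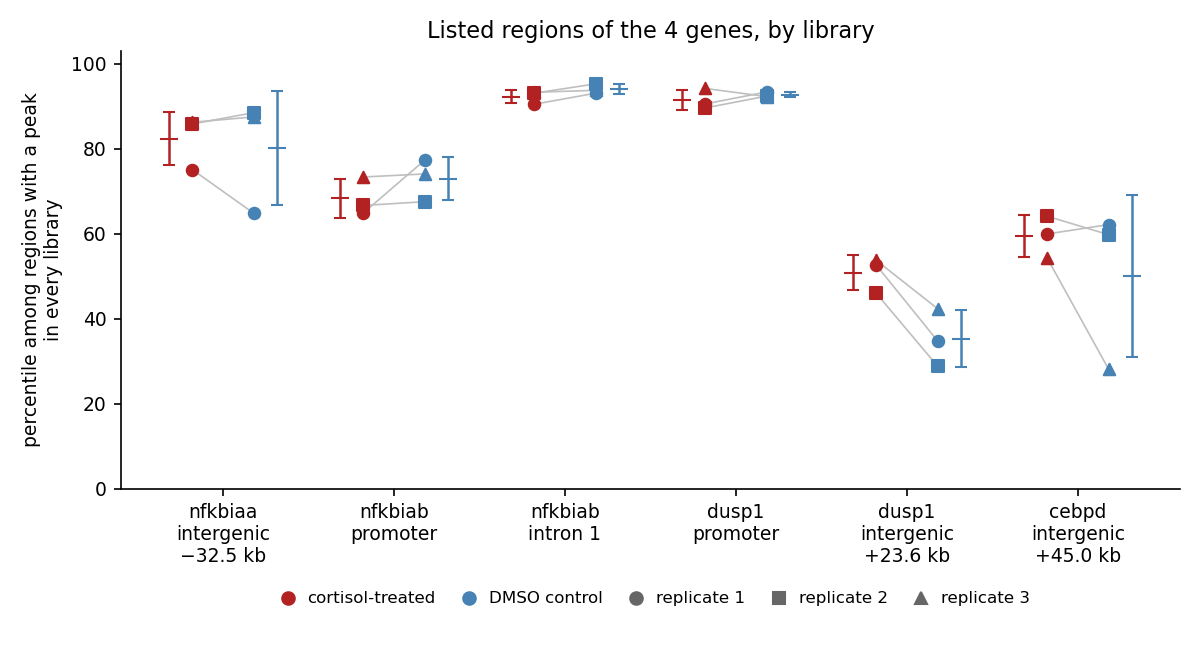
Percentile of the 6 listed regions of nfkbiaa, nfkbiab, dusp1 and cebpd, ranked within the set that held a peak in every library (y axis, 0 to 100), with the 3 cortisol-treated libraries left of the 3 DMSO controls. Symbols mark the replicate number, grey lines join libraries of the same number, and bars give the mean and SD. The groups are apart only at the dusp1 region 23552 bp from the start, at 46.0 to 53.7 in cortisol-treated and 28.8 to 42.3 in control libraries.

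The genes for IκBα come first, as inhibitors of NF-κB. The nfkbiab promoter region lay on chromosome 17 from 12788423 to 12788722 (GRCz10, as are all positions here), centred 27 bp upstream of the transcription start. Its percentiles were 64.8, 66.6 and 73.3 in cortisol-treated replicates 1 to 3 and 77.3, 67.5 and 74.0 in control replicates 1 to 3. The treated library had the lower percentile in each pair, but the groups overlapped, since treated replicate 3 lay above control replicate 2. The means were 68.3 ± 4.47 in cortisol-treated fish and 72.9 ± 4.98 in controls (SD, n = 3 each), and the permutation test did not separate the difference of -4.69 from the spread (exact p = 0.2, adjusted p = 0.854 over all listed regions). The difference in log2 height was -0.10 ± 0.19 (SE, limma adjusted p = 0.830). Without the libraries of replicate 1 it was 0.04.

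The stronger nfkbiab region lay in intron 1 of 5, on chromosome 17 from 12789140 to 12789565, centred 753 bp downstream of the start. It was among the tallest regions in every library, at percentiles of 90.4, 93.0 and 93.2 in cortisol-treated fish and 93.0, 95.2 and 93.7 in controls. Here too the treated library was slightly lower in each pair while the groups overlapped. The means were 92.2 ± 1.57 in cortisol-treated fish and 94.0 ± 1.12 in controls (SD, n = 3 each, difference -1.76, exact permutation p = 0.2). The log2 height differed by -0.05 ± 0.16 (SE, limma adjusted p = 0.900), with a 95% interval from -0.42 to 0.32. The spread of this region over the 6 libraries was the smallest of the 6 on the log2 height scale, from 1.88 to 2.07 in treated fish and from 1.95 to 2.09 in controls.

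For nfkbiaa the list held no region near the gene but a region 32529 bp upstream of the start, on chromosome 20 from 16949593 to 16949962, annotated as intergenic. Its percentiles were 75.0, 85.8 and 86.2 in cortisol-treated fish and 64.8, 88.5 and 87.4 in controls. Replicate 1 stood low in both groups and was the only pair with the treated library higher, by 10.3 percentile points, while the treated libraries of replicates 2 and 3 were lower by 2.68 and 1.26 points. The means were 82.3 ± 6.31 in cortisol-treated fish and 80.2 ± 13.4 in controls (SD, n = 3 each, difference 2.12, exact permutation p = 1), and the log2 height differed by 0.16 ± 0.31 (SE, limma adjusted p = 0.836). Without control replicate 1 the percentile difference was -5.61, and without both libraries of replicate 1 it was -1.97. Without cortisol-treated replicate 1 it was 5.76, so among single libraries the sign rested on control replicate 1.

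Dusp1, the MAP kinase phosphatase, had the most open promoter of the 4 genes. The promoter region lay on chromosome 14 from 15457882 to 15458396, centred 78 bp upstream of the start of a gene on the minus strand, and the peak over it had 2 summits in all 6 libraries. Its percentiles were 90.5, 89.5 and 94.1 in cortisol-treated fish and 93.3, 92.3 and 92.2 in controls. Treated replicate 3 was the highest of the 6 libraries and the other treated libraries were the lowest, so the control values fell inside the treated range. The means were 91.4 ± 2.42 in cortisol-treated fish and 92.6 ± 0.597 in controls (SD, n = 3 each, difference -1.23, exact permutation p = 0.5). The log2 height differed by 0.04 ± 0.20 (SE, limma adjusted p = 0.938), with a 95% interval from -0.43 to 0.50. The mean percentile and the mean log2 height thus had opposite signs at this promoter.

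The other dusp1 region was intergenic, on chromosome 14 from 15434333 to 15434686, centred 23552 bp downstream of the start on the side of the gene neurl1b. Its percentiles were 52.6, 46.0 and 53.7 in cortisol-treated fish and 34.8, 28.8 and 42.3 in controls. Every treated library lay above every control, and the treated library was higher by 17.9, 17.2 and 11.4 percentile points in replicates 1, 2 and 3. The means were 50.8 ± 4.18 in cortisol-treated fish and 35.3 ± 6.78 in controls (SD, n = 3 each), 15.5 points apart, with the smallest p the exact permutation test allows, 0.1, and an adjusted p of 0.854 over all listed regions. A larger difference was found at 8.47% of the listed regions.

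The heights at this dusp1 region were 85, 111 and 66 reads in cortisol-treated fish and 49, 44 and 65 reads in controls. Relative to the median region, the log2 heights were 0.09, -0.11 and 0.11 in cortisol-treated fish and -0.36, -0.47 and -0.24 in controls, again without overlap, as at 10.2% of the listed regions with a height in all libraries. The region was 1.31 times as high in treated fish, a log2 difference of 0.39 ± 0.18 (SE) with a 95% interval from -0.03 to 0.81. It did not pass the test across all regions (limma adjusted p = 0.697). In the largest departure among the alternative settings, with the region ranked against every peak that its library held in place of the shared regions, the difference was 1.53 percentile points and the groups overlapped. How many other listed regions lost their separation under that ranking is not given here. Without the libraries of replicate 1 the difference was 14.3 points and the groups still did not overlap. Every treated library lay above every control at 29.5% of all listed regions without that pair. With the labels of that pair exchanged the groups would overlap, so the separation rests on the labels as deposited.

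Cebpd, the C/EBPδ gene, had a single listed region, 45012 bp downstream of the start on chromosome 24 from 35721391 to 35721763, annotated as intergenic. Its percentiles were 59.9, 64.1 and 54.3 in cortisol-treated fish and 62.1, 59.7 and 28.1 in controls. The difference came from replicate 3, where the treated library was higher by 26.2 points, against 4.34 in replicate 2 and -2.20 in replicate 1. The mean was 9.44 points higher in cortisol-treated fish (exact permutation p = 0.6), and the SD was 4.90 in cortisol-treated fish and 19.0 in controls (n = 3 each). The log2 height differed by 0.34 ± 0.29 (SE, limma adjusted p = 0.705). Without control replicate 3 the percentile difference was -1.49 and the log2 difference 0.01.

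**Figure D2:**
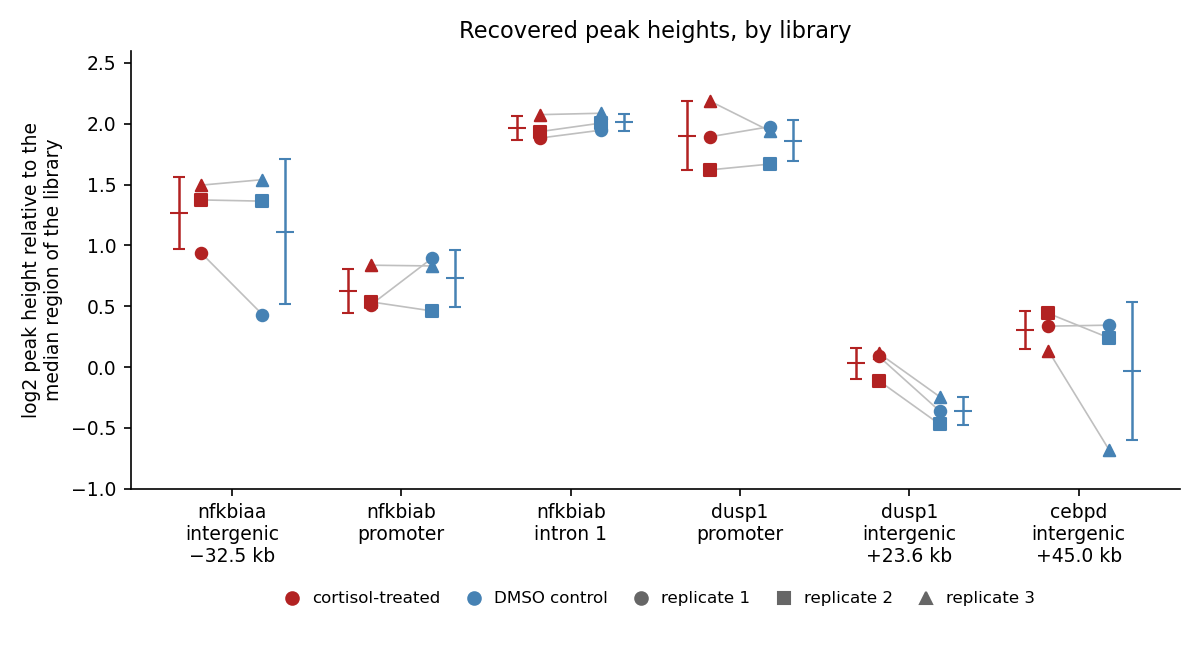
Height of the same 6 regions on a log2 scale relative to the median region of each library (y axis, log2 units, 0 is the median region), with cortisol-treated libraries left of DMSO controls, symbols for the replicate number, lines between libraries of a number, and mean and SD bars. The dusp1 region 23552 bp from the start lies near the median region, at -0.11 to 0.11 in cortisol-treated and -0.47 to -0.24 in control libraries, while the dusp1 promoter and the nfkbiab intron lie between 1.62 and 2.19 in all libraries.

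No region of the 13835 passed the limma test at an adjusted p of 0.05, which is 0% of those tested, and 723 had an unadjusted p below that value. With the replicate number as a block, limma called 0.463% of the regions higher and 4.32% lower in treated fish, and none of the 6 regions of the 4 genes was among either. Their adjusted p-values with the block ran from 0.261 at the distal dusp1 region to 0.896 at the dusp1 promoter.

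The order of the 6 regions was much the same in every library. The dusp1 promoter and the nfkbiab intron held the first places in all 6 libraries, and which of them was first varied. The distal dusp1 region was last in 5 libraries and the cebpd region in control replicate 3. The mean percentiles of the dusp1 promoter and the nfkbiab intron differed by less than their SD within the cortisol-treated group, so these neighbours were not separated there. In controls these means differed by more than either SD, with the intron higher. Yet in control replicate 1 the dusp1 promoter was the higher, at 93.3 beside 93.0, so the order was not constant there either. For the nfkbiaa region and the nfkbiab promoter, and for the cebpd region and the distal dusp1 region, the means differed by more than either SD in cortisol-treated fish. In controls they differed by less than the larger SD, which was 13.4 at the nfkbiaa region and 19.0 at the cebpd region.

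The pooled lists, in which the authors combined the libraries of a group, gave each of the 6 regions a greater height in treated fish. The peak names of both pooled lists carry the word Flipped, which the labels do not explain. The median ratio of the pooled height to the summed heights of the libraries labelled with the same group was 1 for both groups. At the dusp1 promoter the pooled height was 996 reads in cortisol-treated fish and 760 reads in controls, a ratio of 1.31, and at the nfkbiab intron 1009 reads in cortisol-treated fish and 811 in controls, a ratio of 1.24. The ratio was 1.14 at the nfkbiab promoter, with 392 reads in cortisol-treated fish and 343 in controls, and 1.40 at the nfkbiaa region, with 638 reads in cortisol-treated fish and 455 in controls. The median region had a ratio of 1.32, so these 4 regions were at 0.863 to 1.06 times the median. The distal regions of cebpd and dusp1 were at 1.26 and 1.23 times the median, with 334 reads in cortisol-treated fish and 200 in controls at cebpd, and 268 in cortisol-treated fish and 164 in controls at dusp1. A pooled height has no replicate error.

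**Figure D3:**
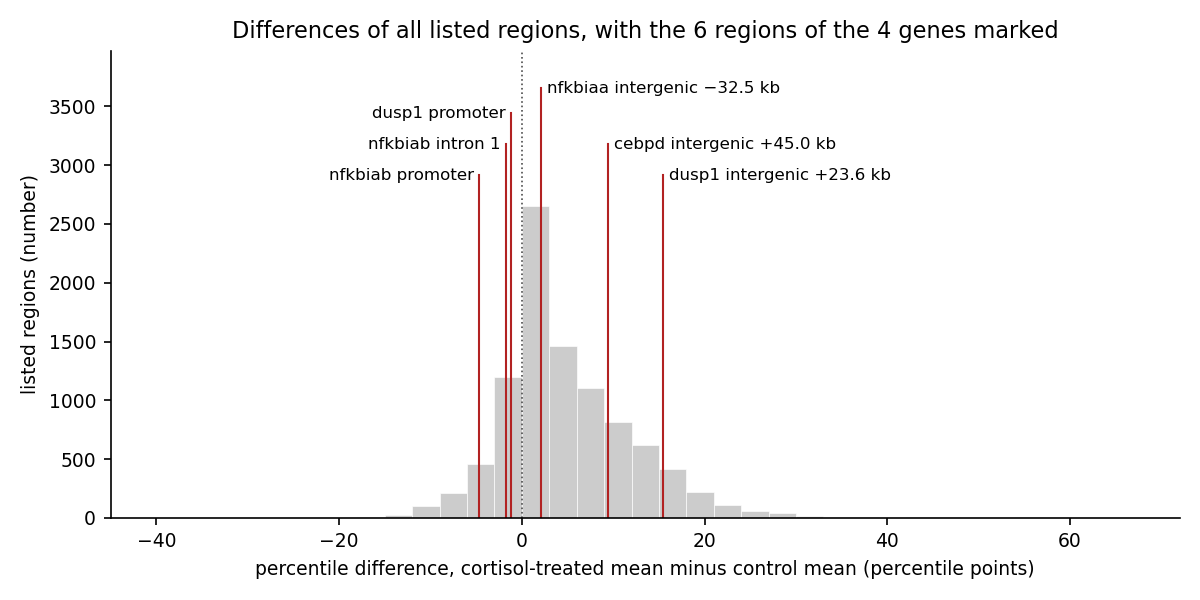
Number of listed regions (y axis) by difference in mean percentile, cortisol-treated minus control (x axis, percentile points, in bins of 3), with red lines at the 6 regions of the 4 genes. The distribution has its median at 3.24, and the 6 regions run from -4.69 at the nfkbiab promoter to 15.5 at the distal dusp1 region.

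Regions near the 4 genes that are not on the list were examined next. The transcription start of each gene follows from the position of a listed region and its annotated distance. For nfkbiab and dusp1 this fixes the strand. For nfkbiaa and cebpd either strand was possible. The plus strand was taken because a region with a peak in every library lies over the start it gives. That the regions over these starts hold a peak in every library was thus fixed by the choice. The minus-strand start of cebpd also had a merged region over it, but not one with a peak in every library. Within 10000 bp of the 4 starts there were 25 merged regions, 10 of them with a peak in every library. The cortisol-treated libraries had a peak at 11, 16 and 15 of the 25, and the controls at 20, 19 and 12. These counts are not scaled to library size. The libraries held 49583, 56695 and 26905 peaks in cortisol-treated fish and 138146, 63072 and 29401 in controls. The share of all merged regions with a peak in each library is not given here. Of the 10, 9 had a lower mean percentile in treated fish against 41.0% of all 13835 regions. None was without overlap between the groups, beside 5.88% of the 13835 with every treated library above every control and 2.9% below. Among the 10, 5 were not on the list and all 5 were lower, by a median of 11.2 points. Since the list took the regions scored as higher, unlisted regions were lower in general, and 71.2% of the 5258 unlisted regions with a peak in every library had a lower mean percentile in treated fish, with a median difference of -5.10.

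The region over the nfkbiaa start, on chromosome 20 from 16982069 to 16982540, was not on the list. Its percentiles were 12.2, 8.22 and 24.5 in cortisol-treated fish and 34.8, 55.1 and 20.7 in controls. The treated library was lower in replicates 1 and 2 and higher in replicate 3. The means were 15.0 ± 8.50 in cortisol-treated fish and 36.9 ± 17.3 in controls (SD, n = 3 each, difference -21.9, exact permutation p = 0.2), and the log2 height differed by -0.80 ± 0.32 (SE, limma adjusted p = 0.697, and 0.113 with the replicate block). A second region 923 bp downstream of the start had percentiles of 28.9, 38.9 and 28.0 in cortisol-treated fish and 58.2, 40.5 and 30.8 in controls, lower in each pair (difference -11.2, exact permutation p = 0.2). At the IκBα gene without a listed promoter, the regions at the gene itself thus had lower mean percentiles in treated fish, with overlap. These regions were unlisted, and 71.2% of unlisted regions with a peak in every library were lower. The distal listed region had a higher mean, by 2.12 points, but without control replicate 1 its difference was -5.61.

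Around dusp1 the unlisted region centred 1190 bp downstream of the start had percentiles of 5.14, 3.39 and 1.47 in cortisol-treated fish and 4.23, 33.6 and 16.1 in controls. It was low in all treated libraries and in control replicate 1, and the log2 height differed by -0.99 ± 0.32 (SE, limma adjusted p = 0.697, and 0.0700 with the replicate block). The unlisted region 780 bp upstream had a mean percentile of 9.01 ± 2.72 in cortisol-treated fish and 15.7 ± 12.9 in controls (SD, n = 3 each, exact permutation p = 0.7). The region over the cebpd start, centred 323 bp downstream of it, differed least, with percentiles of 36.7, 21.5 and 18.0 in cortisol-treated fish and 27.6, 37.9 and 12.2 in controls (difference -0.49, exact permutation p = 0.9).

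Within 50000 bp there were 67 merged regions, of which 22 had a peak in every library, 9 higher and 13 lower in treated fish, against 41.0% lower over all 13835 regions. None of the 22 had every treated library below every control, against 2.9% of all regions with a peak in every library. Besides the distal dusp1 region, 1 of the 22 had every treated library above every control, against 5.88% of all such regions. It lay 24593 bp downstream of the nfkbiaa start and is listed for psma6b, a proteasome subunit gene that follows nfkbiaa in the gene order. Its percentiles were 28.0, 29.7 and 45.5 in cortisol-treated fish and 11.3, 17.5 and 20.7 in controls (difference 17.9, exact permutation p = 0.1). The other IκBα gene is followed by psma6a, and the region listed for psma6a, 24225 bp downstream of the nfkbiab start, had percentiles of 26.4, 39.4 and 55.0 in cortisol-treated fish and 14.4, 14.2 and 46.4 in controls. The treated library was higher in each pair there, with overlap between the groups (difference 15.2, exact permutation p = 0.3). These psma6a and psma6b regions were singled out after their values had been seen.

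**Figure D4:**
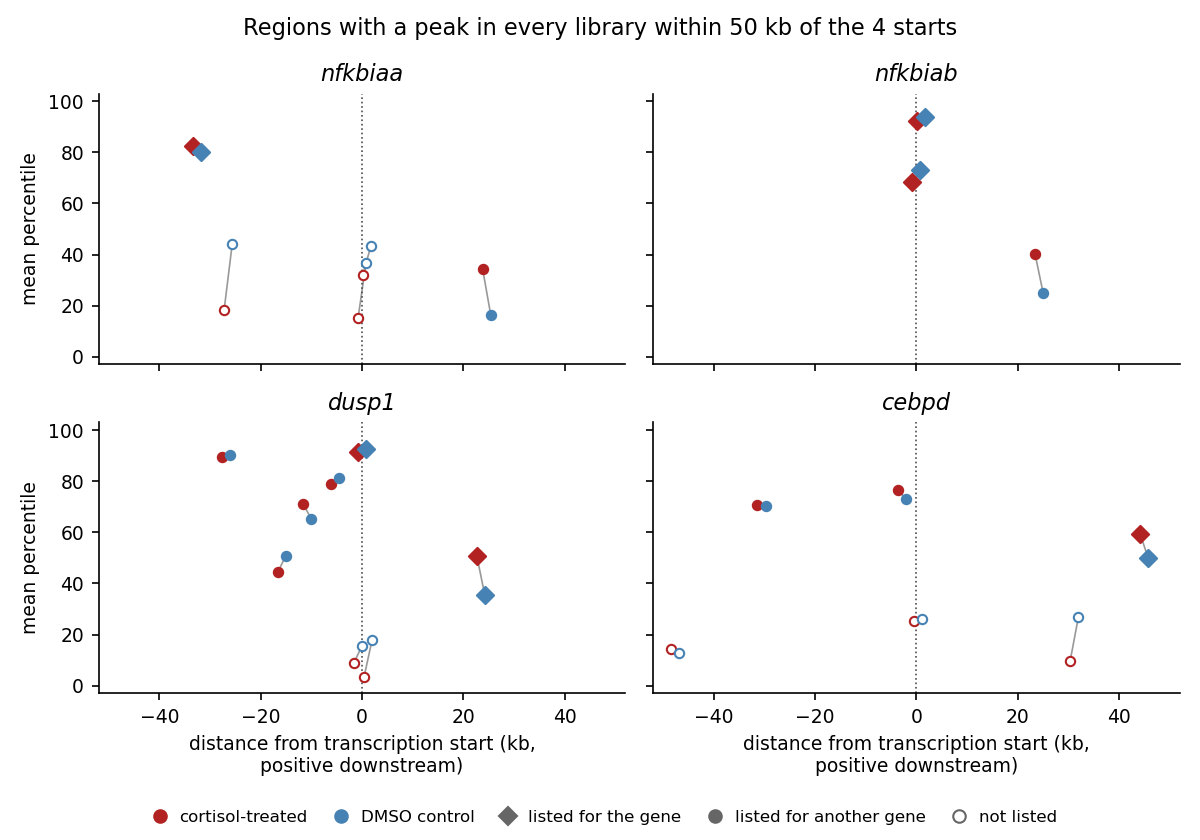
Mean percentile (y axis, 0 to 100) of regions with a peak in every library by distance from the transcription start of nfkbiaa, nfkbiab, dusp1 and cebpd (x axis, kb, positive downstream), with the cortisol-treated mean (red) set slightly left of the control mean (blue) of the same region. Diamonds are regions listed for the gene, filled circles are listed for another gene, and open circles are not listed. Near the nfkbiaa start the unlisted regions average 15.0 and 31.9 in cortisol-treated and 36.9 and 43.1 in control libraries.

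The pathways around the 4 genes were then read from lists of related genes. The counts of genes with a listed region likewise have no share over all annotated genes beside them. Of 28 NF-κB pathway genes, 7 had a listed region, with 14 regions in all. Of these regions 10 were higher in treated fish, beside 79.0% of all listed regions. The highest-scoring was the promoter of traf6, a ubiquitin ligase that relays Toll-like receptor signals to NF-κB, at 83.6 ± 0.448 in cortisol-treated fish and 79.5 ± 6.58 in controls (SD, n = 3 each, exact permutation p = 0.3). The groups were apart at 2 of the 14 NF-κB pathway regions, in opposite directions. Over all listed regions, every treated library lay above every control at 9.54% and below at 0.775%. At the promoter of ripk1l, the kinase gene that acts below the TNF receptor, the percentiles were 45.3, 47.3 and 44.8 in cortisol-treated fish and 37.2, 36.5 and 38.5 in controls (difference 8.40). At the promoter of tnip1, whose product restrains NF-κB together with A20, they were 57.1, 41.5 and 55.0 in cortisol-treated fish and 58.2, 61.9 and 63.4 in controls, with means of 51.2 in cortisol-treated fish and 61.2 in controls. Both had an exact permutation p of 0.1 and an adjusted p of 0.854 over all listed regions.

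Of 18 other dusp genes, 5 had a listed region, and 12 of their 15 regions were higher in treated fish, beside 79.0% of all listed regions. The highest-scoring was a region 62605 bp downstream of the start of dusp6, a phosphatase of the ERK kinases, at 95.2 ± 1.87 in cortisol-treated fish and 94.3 ± 0.379 in controls (SD, n = 3 each, exact permutation p = 0.5). A neighbouring region of dusp6, 65469 bp downstream of its start, had no overlap, with 36.0, 47.3 and 44.1 in cortisol-treated fish and 26.0, 12.3 and 35.8 in controls. The other dusp region without overlap lay 4649 bp upstream of dusp23b, at 84.3, 84.3 and 86.7 in cortisol-treated fish and 79.9, 77.7 and 80.0 in controls. Every treated library thus lay above every control at 2 of the 15 regions, beside 9.54% of all listed regions.

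Of 22 genes for MAP kinases and for the kinases above and below them, 12 had a listed region. Of their 20 regions 14 were higher in treated fish, beside 79.0% of all listed regions. The highest-scoring region was at mapk7, the ERK5 gene, at 91.2 ± 1.72 in cortisol-treated fish and 89.4 ± 2.08 in controls (SD, n = 3 each, exact permutation p = 0.3). The groups were apart at the promoter of mapk8b, a JNK gene, with 78.3, 76.8 and 80.3 in cortisol-treated fish and 73.0, 72.9 and 75.9 in controls. They were also apart at a region 47972 bp upstream of mapk11, a p38 kinase gene, with 53.1, 53.4 and 59.9 in cortisol-treated fish and 37.2, 36.5 and 41.6 in controls. Every treated library thus lay above every control at 2 of the 20 regions, beside 9.54% of all listed regions.

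Of 6 other C/EBP genes only cebpg, which pairs with other C/EBP factors, had listed regions. Its promoter and first listed intron region lay under a single peak in all 6 libraries, at 87.9 ± 2.17 in cortisol-treated fish and 86.5 ± 3.10 in controls (SD, n = 3 each, exact permutation p = 0.7). Of 23 other genes that glucocorticoids induce or that dampen inflammation, 7 had a listed region. Of their 13 regions 12 were higher in treated fish, beside 79.0% of all listed regions. The sgk1 promoter, of a kinase gene induced by the hormone, was the most open of them at 99.6 ± 0.126 in cortisol-treated fish and 99.3 ± 0.338 in controls (SD, n = 3 each, exact permutation p = 0.3). A region 6775 bp downstream of the start of anxa1a, a gene for annexin A1, had percentiles of 87.4, 89.8 and 89.0 in cortisol-treated fish and 75.8, 83.7 and 85.4 in controls, without overlap. With the tsc22d3 region described next, this held for 2 of the 13 regions, beside 9.54% of all listed regions.

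The largest difference in these lists was at tsc22d3, the gene for the glucocorticoid-induced leucine zipper protein. A region 601 bp upstream of its start had 93.8, 93.2 and 90.1 in cortisol-treated fish and 53.9, 33.6 and 38.5 in controls. In all 3 treated libraries this region and another 51 bp upstream of the start lay under the same peak, and in none of the controls, so the treated values are those of the joint peak. The region at 51 bp had 93.8, 93.2 and 90.1 in cortisol-treated fish and 93.6, 88.6 and 91.2 in controls. Across the 5 lists, 50 of 64 regions were higher in treated fish, which is 78.1% beside 79.0% of all listed regions, with a median difference of 3.21 beside 3.24. Every treated library lay above every control at 7 of the 64, beside 9.54% of all listed regions, and below at 1, beside 0.775%. The 7 include the tsc22d3 region at 601 bp, whose treated values are those of the joint peak. Regions 86189 and 86623 bp upstream of the socs3a start also shared a peak, in 3 treated libraries and 1 control. The difference of 32.7 points at 86623 bp thus sets the joint peak in treated fish against a separate peak in most controls. The map2k6 regions at 247 and 937 bp shared a peak in 2 treated libraries and 0 controls.

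The promoters whose heights were most like those of each gene's highest-scoring region were sought by the Euclidean distance over the 6 libraries, among 4292 listed promoter regions. For nfkbiaa they were those of snapc3, esf1 and tp53bp1, at distances of 0.19 to 0.31 log2 units, which shared the low replicate 1. For the nfkbiab intron they were those of abcf2a, si:dkey-12e7.1 and mlec, at 0.30 to 0.37. For the dusp1 promoter they were those of ccng2, cry2 and pias4a, at 0.25 to 0.31. The cebpd region had no promoter as near, and its closest were those of ddx27, xpr1b and si:ch211-147k9.8, at 0.54 to 0.65. All points of a profile share their library, and likeness here is a description of these 6 libraries.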

How the data were processed

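ATAC-seq libraries of adult zebrafish blood, 3 cortisol-treated and 3 DMSO control, were analysed from the deposited peak lists. Per the labels and methods, the authors trimmed reads with Trimmomatic 0.32, aligned 30 bp reads to GRCz10 with Bowtie 1.0.0, used MACS2 2.1.1.20160309 for peaks (q threshold 0.001), and annotated compared regions with HOMER 4.8. The deposited lists give a score for each peak, which the authors' caller derives from the q-value of the summit and which is not scaled between libraries. The comparison column of the annotated table, a log10 likelihood ratio between pooled groups, was not used. No other column of per-sample values was left out. Read totals were not used here, so the recovered background stands in for depth, without counting intervals.

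A region's score in a library was that of the highest-scoring peak overlapping it by at least 1 bp, and 0 was entered where there was none. Heights were recovered from the steps between consecutive scores under a single Poisson background per list. The sum of the recovered backgrounds was 14.17 for treated libraries beside 14.19 for their pooled list, and 21.28 beside 21.32 for controls. The recovery was tested on lists simulated from the recovered heights, again under a single Poisson background. Such lists cannot show whether the real scores follow that model. Log2 heights were centred on the library median and compared by limma 3.58.1 in R 4.3.3 with Benjamini-Hochberg adjustment. Python 3.11.15, numpy 2.4.6, pandas 2.3.3, scipy 1.17.1 and matplotlib 3.10.9 were used. The labels call the replicates biological but name no clutch or tank, so p-values measure the spread between these samples.

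The members and all gene lists were chosen with earlier results of these data known. Named from the lists were the gene with the highest-scoring region of each list and genes with a region without overlap between groups. The replicate numbers were read as pairing the libraries, since same-numbered libraries share an age in the labels and their deviations from the group means correlated across regions by 0.65, 0.18 and 0.64, against -0.62 to 0.14 for other numbers. Removing group means builds part of this contrast in. Alternatives were another reference set, overlap of 50%, merged regions, scores of at least 100, other scalings, a height filter, the replicate block, each library left out, and the libraries of replicate 1 left out. Gene order was read from RefSeq on GRCz12tu, without coordinates. Sequences of promoters, regions and proteins were not analysed here.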

Additional observations from a re-analysis of the deposited data

How the results depend on the processing

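None of the 6 regions passed the limma test under any alternative run (lowest adjusted p 0.232), and the permutation tests cannot reach a p of 0.05 with these libraries. Ranks against every peak in the library gave -1.78 percentile points at the nfkbiaa region and left 0 regions with every treated library above every control. The share of all listed regions without overlap under that ranking is not given here. The alternative without the libraries of replicate 1 was chosen after seeing the data. It gave -1.97 percentile points and a log2 height difference of -0.018 at the nfkbiaa region, and 0.040 at the nfkbiab promoter, and left 2 regions with every treated library below every control, against 0 with all libraries. That count was also added after seeing the data. Scaled to the background, the log2 differences of all 6 regions were positive, beside a shift of the median region by 0.96. Those of the nfkbiab promoter and intron were 0.86 and 0.91, below that shift. The others were 0.997 at the dusp1 promoter, 1.11 at nfkbiaa, 1.29 at cebpd and 1.35 at the distal dusp1 region. Centred on the taller regions, the log2 difference of the dusp1 promoter was -0.077. The cause of these changes was not tested, apart from the scaling shift, which the alternative builds in.

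Leaving out each library in turn, the percentile difference ran from -1.49 to 15.5 at cebpd, 12.3 to 19.0 at the distal dusp1 region, -2.60 to -0.304 at the dusp1 promoter, -5.61 to 6.24 at nfkbiaa, -7.41 to -2.51 at the nfkbiab promoter and -2.26 to -0.854 at its intron. The log2 height difference ran from 0.01 to 0.53, 0.33 to 0.46, -0.10 to 0.18, -0.18 to 0.37, -0.23 to -0.02 and -0.10 to -0.01 at the same regions in that order. The count of regions with every treated library above every control was 1 each time, beside 12.6% to 34.3% of listed regions. That of regions with every treated library below every control was 0 to 3, beside 1.9% to 3.72%. Lower regions within 10000 bp numbered 7 to 9, and the share of all regions with a peak in every library is not given for these settings. At the dusp1 promoter the sign of the log2 difference turned without cortisol-treated replicate 3 and without control replicate 2, at -0.10 and -0.06.

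With the replicate block the exact sign-flip permutation test, whose smallest p is 0.25, gave that p at the distal dusp1 region and both nfkbiab regions, and limma gave an adjusted p of 0.261 at the distal dusp1 region. The block changed no call at the 6 regions, but over all 13835 regions it called 64 higher and 598 lower, where limma without it called 0.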
